A study of Mus musculus with 141 samples.

Results

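The mitochondrial ribosomal protein genes are the nuclear genes whose products build the ribosome of mitochondria. They were taken as every symbol of the deposited gene table made of Mrpl (large subunit) or Mrps (small subunit), a number and at most one letter from a to c, without pseudogene symbols. This gave 77 of 46517 genes, of which 48 were named for the large and 29 for the small subunit. RNA was sequenced from C57BL/6 mouse naive CD4 T cells, sort-purified from spleen and lymph nodes as CD4+CD25-CD44lo cells, and from such cells stimulated in culture on plates coated with antibodies to CD3 and CD28. Every stimulated group received both antibodies, and the 0 h cells received neither. A set of 57 libraries (replicates 1 to 3) held 0 h cells, cells with IL6 and TGFb, and cells with no added cytokines. A second set of 84 (replicates 4 to 6) held cells with IL6, TGFb, IL1b and IL21, cells with IL6, TGFb and IL1b, cells with IL6, TGFb and IL21, and a 0 h group of their own. Stimulated cells were collected at 9 times between 0.5 and 72 h, with 3 biological replicates in each of the 47 groups. Whether replicates came from separate mice is not stated, so p-values measure the spread between these samples. The main fits pooled that spread over all groups of a set.

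The mitochondrial ribosome translates the few messages of mitochondrial DNA, which encode membrane subunits of the respiratory chain and of ATP synthase. Its RNAs are made inside the organelle, whereas all of its proteins are encoded in the nucleus, made in the cytosol and imported. A naive T cell is small and quiescent, and on activation it grows, divides and enlarges its mitochondrial network. The deposited table listed all 37 mitochondrially encoded genes at 0, so the products of the mitochondrial genome were not analysed here.

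The libraries held 15.95 to 47.07 M reads (M for mega), with a median of 25.4 M. The libraries without cytokines at 48 and 72 h stood apart, and a spread pooled over groups can understate theirs. The root mean square of a library's log2 deviation from its group mean, over all genes tested, was 0.424 at 48 h and 0.621 at 72 h for their replicate 1 and 0.237 to 0.338 for their other replicates, against a median of 0.157 over all libraries. Values are read counts scaled to the depth of the library (CPM) and divided by a trimmed mean of M-values (TMM) factor that centres the bulk of genes. CPM is a share of the RNA sequenced, so more RNA per cell is not visible in it. Cd4 averaged 847 ± 33.5 CPM at 24 h without cytokines and 958 ± 19.5 CPM at 0 h (SD, n = 3 each). The 6 T cell markers, Cd4 among them, changed more: their sum was 2312 to 2648 CPM at 24 h, against 3496 to 3699 CPM at 0 h. Cd8a stayed at or under 3.48 CPM in the 0 h libraries of replicates 1 to 3, where Cd8a and Cd8b1 together summed to 15.3 to 21.7 CPM. At 24 h without cytokines that sum was 33.7 to 42.1 CPM. Genes were tested with limma on log2 of scaled CPM plus 0.5 and are said to have risen or fallen at an adjusted p under 0.05. A total of 76 of the 77 genes reached 1 CPM in at least 3 libraries and were tested. The exception was Mrpl53, at 0.155 ± 0.059 CPM at 0 h (SD, n = 3), of whose exon bases 88.0% also belong to another annotated gene.

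Because the genes moved largely together, their promoters were read from RefSeq (GRCm38.p6) over 250 bases before to 50 bases after each start. Promoters were found for 68 of the 77 genes, 74 in all. Below are the promoters of Mrpl17, the gene with the highest change at 2 h of stimulation, Mrps22, the highest at 24 h, Mrpl34, the lowest at 2 h, and Mrpl24, which fell where the others rose. Capitals mark the ETS core CCGGAAG, bound by GABPA, and the NRF1 motif GCATGCG, on either strand. Both factors are known regulators of nuclear genes for mitochondrial proteins.
Mrpl17: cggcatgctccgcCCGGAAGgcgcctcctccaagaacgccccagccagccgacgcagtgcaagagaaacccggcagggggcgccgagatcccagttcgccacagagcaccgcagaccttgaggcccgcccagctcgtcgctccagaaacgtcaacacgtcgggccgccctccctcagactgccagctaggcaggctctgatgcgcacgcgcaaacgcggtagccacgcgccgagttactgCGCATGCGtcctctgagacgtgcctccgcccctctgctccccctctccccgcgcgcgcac
Mrps22: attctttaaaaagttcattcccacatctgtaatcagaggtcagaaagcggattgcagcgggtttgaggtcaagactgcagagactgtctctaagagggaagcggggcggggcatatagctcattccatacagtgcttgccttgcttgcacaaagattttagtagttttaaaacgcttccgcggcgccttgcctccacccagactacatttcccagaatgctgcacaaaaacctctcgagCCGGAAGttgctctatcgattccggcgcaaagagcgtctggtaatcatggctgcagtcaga
Mrpl34: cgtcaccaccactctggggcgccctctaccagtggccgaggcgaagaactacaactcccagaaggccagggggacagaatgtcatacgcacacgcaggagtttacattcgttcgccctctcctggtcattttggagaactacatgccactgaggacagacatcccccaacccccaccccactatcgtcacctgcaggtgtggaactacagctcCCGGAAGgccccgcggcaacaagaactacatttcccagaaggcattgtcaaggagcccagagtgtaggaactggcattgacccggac
Mrpl24: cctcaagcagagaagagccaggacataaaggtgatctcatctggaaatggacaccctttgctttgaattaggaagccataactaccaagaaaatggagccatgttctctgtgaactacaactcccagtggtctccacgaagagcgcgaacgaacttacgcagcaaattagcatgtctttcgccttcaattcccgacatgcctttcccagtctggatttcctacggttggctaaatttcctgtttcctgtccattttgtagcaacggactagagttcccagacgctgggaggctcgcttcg
The Mrpl17 promoter lies at chr7:105811038-105811337 on the minus strand and the Mrps22 promoter at chr9:98601630-98601929 on the minus strand. The Mrpl34 promoter lies at chr8:71464676-71464975 and the Mrpl24 promoter at chr3:87919294-87919593, both on the plus strand. Mrpl17, which rose early, and Mrpl34, which fell early, both held the ETS core. The Mrpl24 window held none of the 7 motifs searched. The same was true of Mrpl12, Mrpl30, Mrpl44, Mrpl45, Mrpl47 and Mrps2, which all rose at 24 h without cytokines.

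The ETS core was present in 25 of the 74 promoters (33.8%), against 16.7% of the 12948 promoters of all genes past the level filter and 8.9% of all 32544 promoters of that table. It was in 40.7% of the 27 small subunit promoters and 29.8% of the 47 large subunit promoters. The YY1 motif AAGATGG was in 17.6% of the promoters, against 7.0% of those past the filter. The NRF1 motif was in 10.8%, against 6.0%. The E-box CACGTG, bound by MYC, was in 9.5%, against 9.9%, and the GC box GGGCGG in 52.7%, against 60.3%. CCAAT was in 40.5%, against 37.6%, and TATAAA in 6.8%, against 7.2%. Both strands were searched, and some promoters of a gene overlap each other, so promoters are not independent. Respiratory chain subunit genes held the NRF1 motif in 16.4%, the ETS core in 23.9% and the YY1 motif in 14.9% of 67 promoters. Cytosolic ribosomal protein genes held the ETS core in 35.5% and the YY1 motif in 15.8% of 76. Within the mitochondrial ribosomal protein genes, the median log2 change at 12 h was 1.24 for the 24 tested genes with the ETS core and 1.49 for the 43 without. The 5 tested genes with the E-box had a median of 1.73 at 12 h, and the 62 without it 1.34. These splits were not tested.

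**Figure D1:**
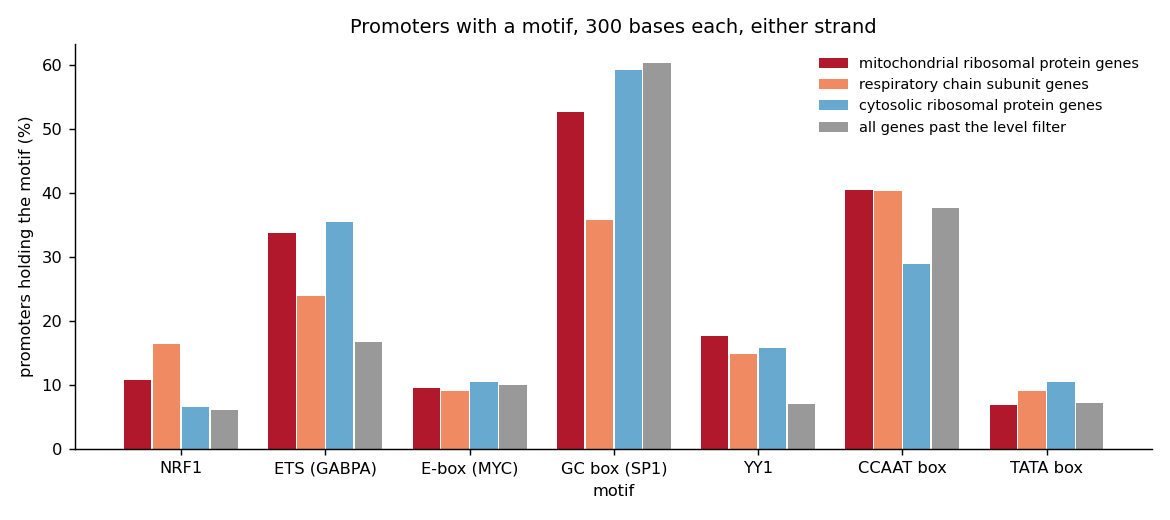
Share of promoters (%, 300 bases each, either strand) that hold each of 7 motifs, for 4 sets of genes shown as bars. The ETS core is in 33.8% of mitochondrial ribosomal protein promoters and 16.7% of the promoters of all genes past the level filter, while the E-box is in 9.5% and 9.9%.

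Stimulation without cytokines first lowered and then raised the mitochondrial ribosomal protein genes as a group. Their summed level was 1405, 1528 and 1373 CPM in replicates 1, 2 and 3 at 1 h, against 1632, 1663 and 1663 CPM at 0 h. The 3 libraries at 1 h all lay below those at 0 h. At 12 h the sum reached 4467, 4618 and 4364 CPM, the highest mean of any group (4483 ± 128 CPM, SD, n = 3), and at 72 h it was 3019, 2199 and 2435 CPM. A total of 54 of the 76 genes had their highest mean at 12 h and 9 at 24 h, while 38 had their lowest at 1 h and 23 at 0.5 h. Single genes followed this course closely. Across the 47 group means the median correlation of a gene with the median profile of the 76 genes was 0.921, and 64 genes exceeded 0.8. This is a description, since each gene is part of the profile and groups share their 0 h cells and neighbouring times. No other genes were correlated with that profile. Mrpl55 (0.989), Mrps31 (0.983) and Mrpl11 (0.982), which sits at the base of the stalk where translation factors bind, were the most like it. Mrpl24 (0.156), Mrpl4 (0.281) and Mrpl30 (0.481) were the least like it.

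**Figure D2:**
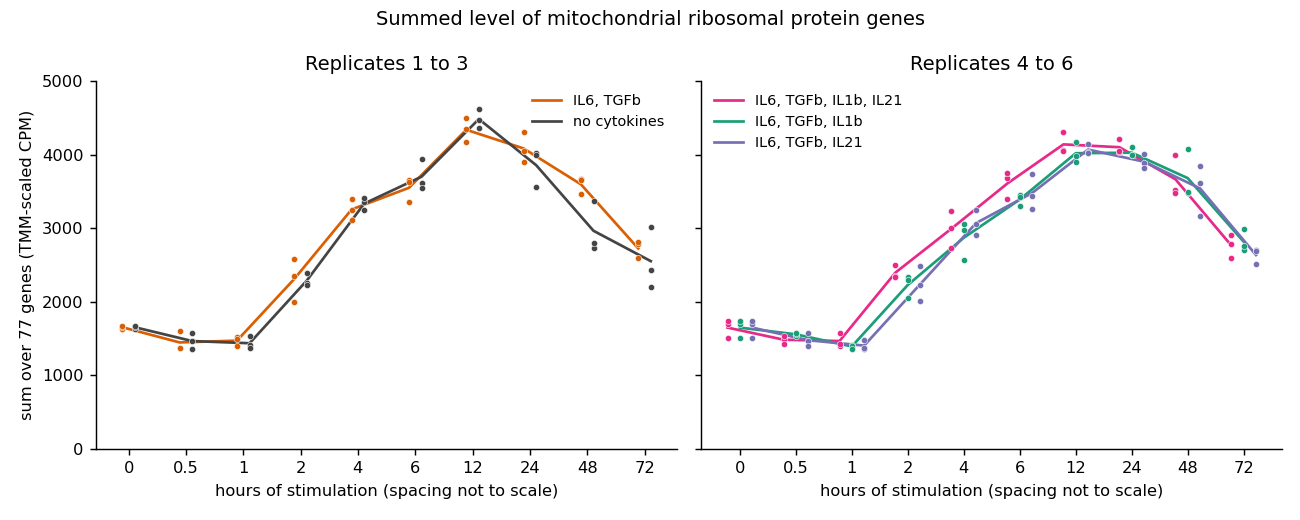
Summed level of the 77 genes (TMM-scaled CPM) in each library (points) against hours of stimulation, with lines through group means. The left panel holds replicates 1 to 3 and the right panel replicates 4 to 6, and the 0 h libraries of each panel are drawn once for each condition. The sum is highest at 12 h without cytokines, at 4483 CPM, against 1653 CPM at 0 h.

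At 1 h, 39 of the 76 genes had fallen and 10 had risen against 0 h. Over all genes tested the shares were 28.2% lower and 27.6% higher. The median log2 change was -0.29 for these genes and -0.01 for all genes. With TMM scaling left out, 56 had fallen and 3 had risen. Recovery was quick: between 1 and 2 h 61 genes rose, where 29% of all genes did, and between 2 and 4 h 64 rose, where 27.8% did.

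At 2 h the genes were split. Against 0 h, 38 had risen and 14 had fallen (36.3% and 33% of all genes), a balance that turned to 27 higher and 31 lower when TMM scaling was left out, which also moved the median of all genes to -0.22 from 0.05. Large subunit genes contributed 26 of the rises and 8 of the falls, and small subunit genes 12 and 6. Mrpl17, a core protein of the large subunit, stood at 56.96, 54.03 and 53.58 CPM at 2 h, against 15.4, 14.8 and 14.8 CPM at 0 h. This was a log2 change of 1.84 ± 0.13 (SE; limma adjusted p = 9.25e-17), with no overlap. Mrpl50, a large subunit protein with no bacterial counterpart, stood at 58.1, 51.1 and 51.8 CPM at 2 h, against 14.92 to 16.21 CPM in the 3 libraries at 0 h (log2 change 1.74 ± 0.13). Mrps6, the counterpart of bacterial S6, stood at 39.6, 40.2 and 37.7 CPM at 2 h, against 10.01 to 13.52 CPM in the 3 libraries at 0 h (log2 change 1.73 ± 0.28). At 4 h Mrps6 reached 95.7, 98.4 and 92.2 CPM. Mrps6 shares exon bases on the same strand with Gm49711 and with Slc5a3, at most 305 with either. Slc5a3, a myo-inositol transporter gene, averaged 250 ± 33.3 CPM at 2 h and 29.3 ± 5.36 CPM at 0 h (SD, n = 3 each). Reads of these genes may be split between them.

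Genes that fell at 2 h were Mrpl34, Mrps35 and Mrpl14, among others. Mrpl34, a short core protein, stood at 3.22, 2.99 and 2.40 CPM at 2 h, against 13.5, 14.1 and 12.1 CPM at 0 h. Its log2 change was -2.03 ± 0.15 (SE; limma adjusted p = 5e-16). Mrps35 stood at 11.60, 10.98 and 10.49 CPM at 2 h, against 24.9, 26.7 and 27.7 CPM at 0 h (log2 change -1.22 ± 0.09). Mrpl14, the counterpart of bacterial L14 at the face between the subunits, stood at 3.77, 4.54 and 2.61 CPM at 2 h, against 7.37, 8.33 and 9.52 CPM at 0 h (log2 change -1.13 ± 0.16). In all 3 genes the libraries at 2 h lay below every library at 0 h. The fall did not last: the 14 genes that were lower at 2 h had all risen against 0 h at 24 h. Mrpl34 then averaged 34.0 ± 4.2 CPM, against 13.2 ± 1.0 CPM at 0 h (SD, n = 3 each). At 4 h, 65 genes had risen (39.5% of all genes) and at 12 h 75 had (40.6%).

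**Figure D3:**
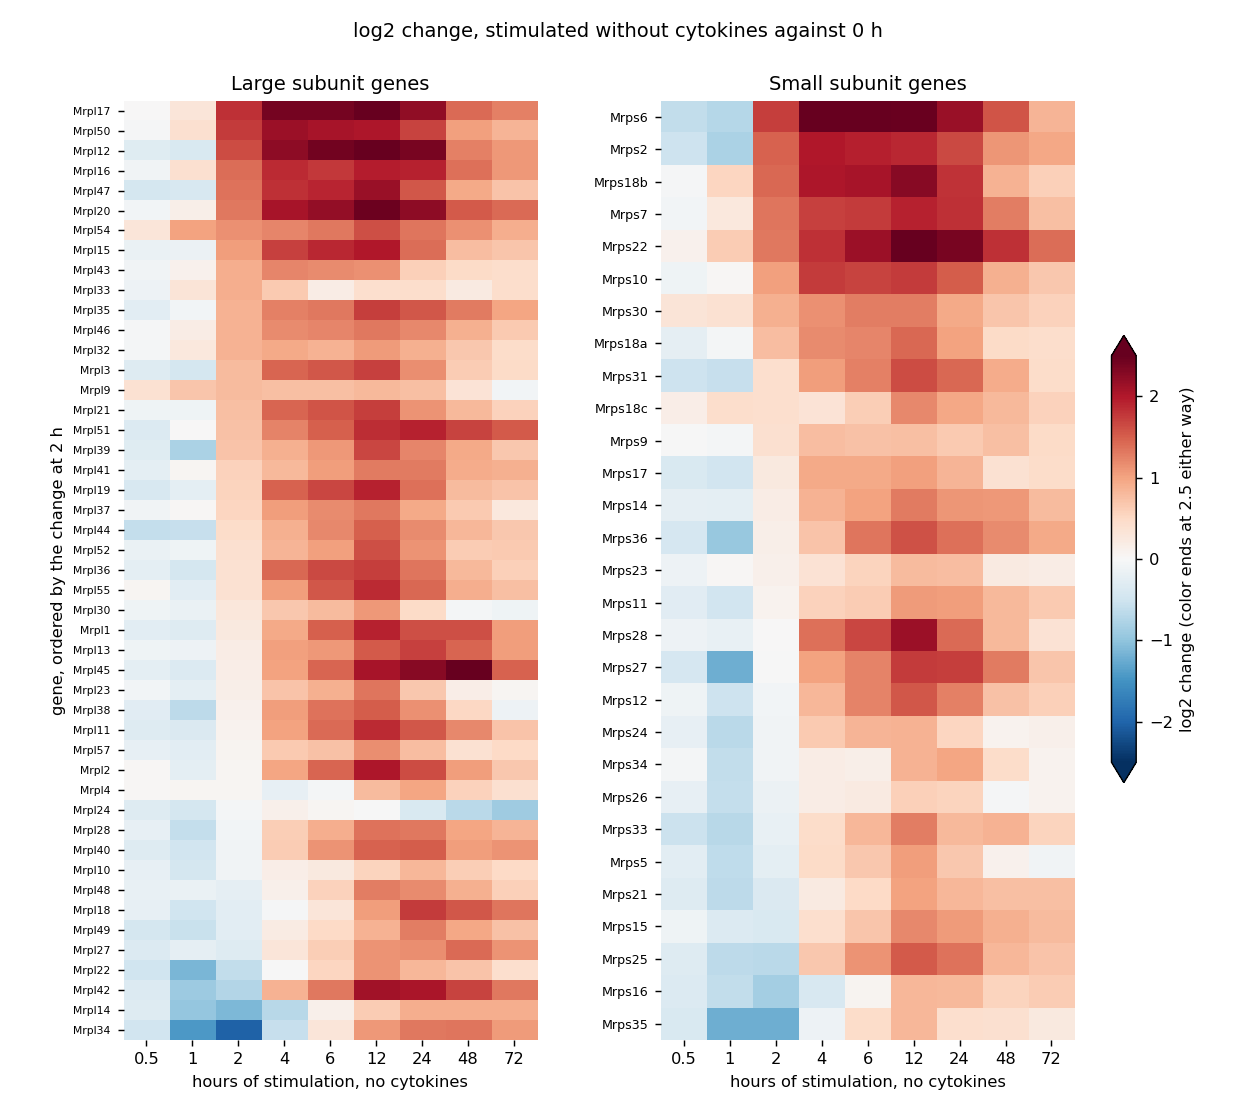
Log2 change against 0 h (color) of 47 large subunit and 29 small subunit genes without cytokines, at 9 times from 0.5 to 72 h, with genes ordered by their change at 2 h. Mrpl34, at the bottom of the large subunit panel, is at -2.03 at 2 h, Mrpl17, at its top, at 1.84, and Mrpl24 is the gene called lower at 24, 48 and 72 h.

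At 24 h without cytokines 75 of the 76 genes had risen and 1 had fallen, where 41.1% of all genes rose and 30.9% fell. The median log2 change was 1.21, against 0.11 over all genes, and reached 1.30 in the large subunit and 1.05 in the small subunit. Leaving out TMM scaling gave the same counts. Mrps22, a small subunit protein whose human gene is mutated in a mitochondrial disease, stood at 38.2, 48.9 and 43.6 CPM at 24 h, against 6.60, 9.04 and 8.41 CPM at 0 h. Its log2 change of 2.38 ± 0.12 (SE; limma adjusted p = 1.82e-21) was the highest of the genes. Mrpl12, the stalk protein that recruits translation factors and in human cells also binds the mitochondrial RNA polymerase, stood at 105.6, 129.9 and 116.6 CPM at 24 h, against 21.9, 22.9 and 21.9 CPM at 0 h (log2 change 2.37 ± 0.15). Mrpl45, which anchors the large subunit to the inner membrane near the exit of the nascent chain, stood at 83.8, 97.9 and 100.1 CPM at 24 h, against 18.2, 19.5 and 19.5 CPM at 0 h (log2 change 2.27 ± 0.17). None of these groups overlapped.

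Mrpl24, a core large subunit protein, was the exception. It stood at 60.2, 53.7 and 59.9 CPM at 24 h, against 75.6, 74.2 and 77.7 CPM at 0 h, a log2 change of -0.39 ± 0.08 (SE; limma adjusted p = 4.94e-05). Its lowest mean came at 72 h, with 46.3, 37.1 and 39.8 CPM and a log2 change of -0.88 ± 0.08. Of the exon bases of Mrpl24, 26.3% are shared with Rrnad1 on the opposite strand. No source used here gives the strand setting of the counting, so reads of such neighbours could not be told apart, and 32 of the 77 genes share some exon bases with another gene.

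**Figure D4:**
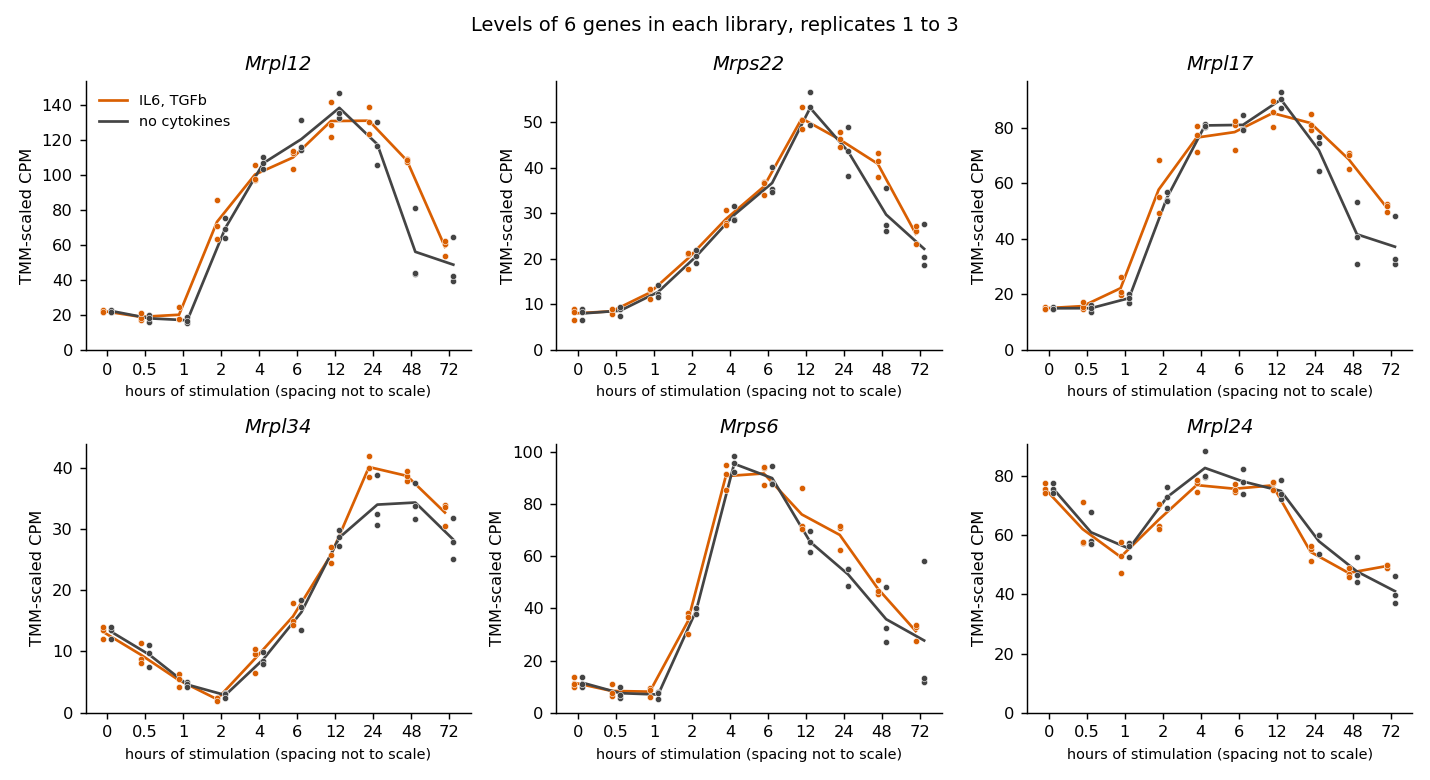
TMM-scaled CPM of 6 genes in each library (points) against hours of stimulation, with lines through group means, for cells with IL6 and TGFb and cells with no cytokines, with the shared 0 h libraries drawn for both. Mrpl12 climbs to 139 CPM at its highest library with IL6 and TGFb at 24 h, Mrpl34 dips to 2.40 CPM without cytokines at 2 h before it rises, and Mrpl24 ends below its 0 h level.

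Genes with known roles in the ribosome moved with the group. Mrps12, the counterpart of the decoding protein S12, had risen at 24 h by a log2 change of 1.26 ± 0.14, and Mrpl3, beside the peptidyl transferase center, by 1.16 ± 0.12. Mrpl44, which has the fold of an RNase III enzyme, had risen by 1.19 ± 0.12. The small subunit genes Mrps2 (1.65 ± 0.13), Mrps7 (1.82 ± 0.12), Mrps16 (0.80 ± 0.10) and Mrps34 (0.98 ± 0.14) had all risen at 24 h, and their human counterparts are also disease genes. Of these, Mrps16 was lower at 2 h (-0.85 ± 0.10), where Mrps2 (1.48 ± 0.13) and Mrps7 (1.33 ± 0.12) were higher. Mrps30 and Mrps18a, which carry small subunit names although their proteins sit in the large subunit, rose at 24 h by 0.94 ± 0.12 and 1.00 ± 0.13. Mrps18b (1.81 ± 0.20) and Mrps18c (0.96 ± 0.12), homologs of Mrps18a, rose as well. Mrps36, whose product has been assigned to the oxoglutarate dehydrogenase complex, rose by 1.38 ± 0.16. Mrpl41 rose by 1.30 ± 0.11.

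Levels were compared per kilobase of annotated exon, averaged over all libraries. Mrpl12 was highest at 51.3 CPM per kb, ahead of Mrpl52 at 44.7 and Mrpl54 at 40.7. The lowest tested genes were Mrpl48 at 2.79, Mrps35 at 3.11 and Mrps25 at 3.42 CPM per kb. For Mrps25, 69.8% of the exon bases are shared with Nr2c2 on the opposite strand. The exon lengths, from GENCODE M21, include every annotated transcript and ran from 607 to 8631 bases, so long untranslated ends lower these values.

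The rest of the mitochondrial translation machinery was more mixed at 24 h without cytokines, where 41.1% of all genes rose and 30.9% fell. Of the mitoribosome proteins listed under other symbols, 5 of 6 rose and 0 fell, from Dap3 (log2 change 0.37 ± 0.09) to Ptcd3 (1.28 ± 0.16). Of the translation factors, 13 of 15 rose and 0 fell, led by the elongation factor Gfm1 (1.95 ± 0.15). Of the genes for mitoribosome assembly and rRNA modification, 15 of 25 rose and 3 fell, from Rnmtl1 (1.95 ± 0.20), an rRNA methyltransferase, to Mettl17 (-1.02 ± 0.09). Of the mitochondrial aminoacyl-tRNA synthetases, 13 of 20 rose and 3 fell, among them Ears2 (-1.05 ± 0.15), which joins glutamate to its tRNA. Of the regulators of mitochondrial transcription and biogenesis, 8 of 12 tested rose and 2 fell. Among these Myc, a transcription factor of growing cells, stood at 2470, 2052 and 1776 CPM at 2 h, against 122.7, 132.4 and 118.3 CPM at 0 h. Its log2 change at 2 h was 4.06 ± 0.20, and at 24 h it was 1.42 ± 0.20. Pprc1, a coactivator of NRF1, had a log2 change of 2.17 ± 0.13 at 2 h. At 2 h the regulators as a list gave 9 higher and 3 lower of 12, where 36.3% and 33% of all genes were. Their log2 changes ran from -1.53 to 4.06, and Myc and Pprc1 were picked from the list after their values were seen.

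Counts for the respiratory chain and for the ribosome of the cytosol were also taken. Over all genes, 41.1% rose and 30.9% fell at 24 h, and 38.5% rose and 25.7% fell at 72 h. Of 73 respiratory chain and ATP synthase subunit genes, 65 rose and 1 fell at 24 h, with a median log2 change of 0.95. Of 81 tested cytosolic ribosomal protein genes, 17 rose and 39 fell at 24 h, with a median of -0.18, and at 72 h 2 rose and 72 fell, with a median of -0.71. Without TMM scaling the cytosolic counts were 14 higher and 43 lower at 24 h and 2 higher and 73 lower at 72 h.

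At 72 h without cytokines 66 of the 76 genes were still higher than at 0 h and 1 was lower (38.5% and 25.7% of all genes), with a median log2 change of 0.67. Mrpl51 stood at 51.0, 43.8 and 49.4 CPM at 72 h, against 14.4, 16.4 and 18.2 CPM at 0 h, a log2 change of 1.53 ± 0.11 (SE; limma adjusted p = 9.4e-16). Mrpl20, the counterpart of bacterial L20, stood at 53.0, 35.0 and 39.5 CPM, against 14.2, 16.3 and 15.7 CPM at 0 h (log2 change 1.42 ± 0.13). Mrpl45 stood at 101.5, 39.1 and 40.0 CPM, against 18.2, 19.5 and 19.5 CPM at 0 h (log2 change 1.48 ± 0.17), so that replicate 1 was far above the other libraries of its group.

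Marker lists were also compared between 24 h without cytokines and 0 h, where 41.1% of all genes rose and 30.9% fell. The 5 B cell markers, all lower at 24 h without cytokines, summed to 1.67 to 3.13 CPM at 24 h, against 8.14 to 12.4 CPM at 0 h. The 6 erythroid and platelet markers in the table, of which 4 were tested and all 4 fell, summed to 1.42 to 2.10 CPM at 24 h, against 19.3 to 35.7 CPM at 0 h. The 6 myeloid markers, of which 4 of 5 tested fell, summed to 21.3 to 25.8 CPM, against 44.2 to 47.7 CPM. The 3 NK markers summed to 0 to 0.0763 CPM, against 0.163 to 0.477 CPM, and were not tested. The 6 T cell markers, of which 1 rose and 4 fell, summed to 2312 to 2648 CPM, against 3496 to 3699 CPM. Lyz2, Hba-a1 and Cd79a stood at 0.15 ± 0.061, 0.37 ± 0.21 and 0.81 ± 0.46 CPM at 24 h (SD, n = 3). The 2 CD8 T cell markers went the other way, at 33.7 to 42.1 CPM at 24 h, against 15.3 to 21.7 CPM at 0 h, and 1 of the 2 was higher. The part of these cells in the results at 24 h was not tested. In these bulk samples fewer cells of a type and less RNA per cell cannot be told apart.

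IL6 and TGFb, the cytokines that start Th17 differentiation, were compared with no cytokines at each time. The median log2 change lay between -0.06 and 0.02 at each of the 6 times from 0.5 to 12 h. Called genes numbered 0 at 0.5 h, 3 at 1 h, 1 at 2 h, 1 at 4 h, 0 at 6 h and 1 at 12 h, where 0.578%, 7.45%, 11.6%, 4.1%, 4.36% and 9.11% of all genes were called. At 0.5 and 6 h, limma gave 3 and 4 of the genes an unadjusted p under 0.05, and edgeR called 0 at both times. Mrpl30 stood out at 1 h, with 73.2, 69.6 and 72.7 CPM with IL6 and TGFb, against 40.5, 41.8 and 36.7 CPM without cytokines. Its log2 change was 0.85 ± 0.11 (SE; limma adjusted p = 4.81e-08), and by 2 h the groups overlapped, at 76.4, 64.0 and 49.6 CPM with IL6 and TGFb and 60.6, 53.9 and 49.6 CPM without cytokines. Mrpl52 was higher with IL6 and TGFb at 1, 2 and 4 h. At 2 h it stood at 50.65, 50.03 and 37.84 CPM with IL6 and TGFb, against 33.9, 36.3 and 33.5 CPM without cytokines (log2 change 0.40 ± 0.10; limma adjusted p = 6.35e-03). Replicate numbers paired the samples at 2 h. With the replicate as a block and the fit limited to the libraries compared, Mrpl52 was again called higher. Mrpl33 was lower at 1 h, at 20.3, 23.3 and 24.5 CPM with IL6 and TGFb, against 24.8, 30.4 and 32.2 CPM without cytokines. At 12 h Mrpl4 was the gene called, and it was lower.

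At 24 h, 3 of the 76 genes were higher with IL6 and TGFb and 0 lower, smaller shares than the 13.4% and 11.7% of all genes. All 3 were in the large subunit. Mrpl33 stood at 41.5, 44.7 and 40.0 CPM with IL6 and TGFb, against 30.4, 30.6 and 32.5 CPM without cytokines (log2 change 0.43 ± 0.09; limma adjusted p = 4.29e-04). Mrpl43 stood at 47.4, 48.1 and 52.2 CPM, against 38.4, 34.6 and 40.2 CPM without cytokines (log2 change 0.38 ± 0.09). Mrpl30 stood at 73.0, 75.3 and 83.4 CPM, against 54.1, 69.6 and 65.3 CPM without cytokines (log2 change 0.30 ± 0.11). The groups did not overlap in any of the 3. Of the exon bases of Mrpl43, 33.4% are shared with Twnk, which encodes the mitochondrial DNA helicase, on the opposite strand. Leaving out replicate 2 left 0 called genes at 24 h. Fits limited to the libraries compared called more than 3 genes at 24 h, both with and without the replicate as a block.

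At 48 h more of the genes were called than at the other 8 times. That peak was not particular to them, since calls over all genes were also most frequent at 48 h. The shares of all genes were 52.4% at 48 h, 25.1% at 24 h and 45.2% at 72 h. With IL6 and TGFb, 41 of the 76 genes were higher and 1 was lower than without cytokines (28.1% and 24.3% of all genes). The median log2 change was 0.29, against -0.01 over all genes. The summed level was 3466, 3672 and 3650 CPM with IL6 and TGFb, against 3366, 2731 and 2796 CPM without cytokines. Replicate 1 without cytokines, which stood apart over all genes, lay above the other 2 of its group in this sum at 48 and at 72 h, and leaving out replicate 1 gave 51 higher and 1 lower genes at 48 h. Without replicate 2 there were 20 higher and 0 lower, and without replicate 3 22 higher and 0 lower. In a fit limited to the 6 libraries with the replicate as a block, 6 were higher and 1 lower. The same fit at 24 h gave 21 higher and 3 lower. Shares of all genes called in this fit and in those without a replicate are not given here. With TMM scaling left out there were 22 higher and 7 lower, and the median of all genes moved to -0.15. Between 24 and 48 h, 50 genes fell without cytokines (21.4% of all genes) and 13 fell with IL6 and TGFb (8.45%), counts that became 44 and 30 without TMM scaling. Between 48 and 72 h 13 fell without cytokines (5.97%) and 52 fell with IL6 and TGFb (19%), which became 25 and 52 without TMM scaling.

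Mrps18b, a mitochondrial protein of the S18 family, stood at 39.55, 47.03 and 44.40 CPM with IL6 and TGFb at 48 h, against 35.5, 15.7 and 17.1 CPM without cytokines. Its log2 change was 1.02 ± 0.20 (SE; limma adjusted p = 3.54e-05). Mrpl12 stood at 107.0, 109.0 and 108.2 CPM with IL6 and TGFb, against 80.8, 43.4 and 43.8 CPM without cytokines (log2 change 1.00 ± 0.15; adjusted p = 3.34e-07 in limma). Mrpl20 stood at 75.9, 77.7 and 80.2 CPM, against 61.5, 37.7 and 40.7 CPM without cytokines (log2 change 0.77 ± 0.13). In all 3 genes replicate 1 without cytokines was the highest of its group, and the groups did not overlap. Mrpl45 went the other way, with 72.9, 79.0 and 75.8 CPM with IL6 and TGFb, against 97.2, 108.8 and 129.5 CPM without cytokines (log2 change -0.55 ± 0.17; limma adjusted p = 5.87e-03). Of the genes with known roles, Mrps2, Mrps7, Mrps12, Mrps18a, Mrps22, Mrps30, Mrps34, Mrpl3, Mrpl41 and Mrpl44 were also higher, by log2 changes of 0.30 to 0.58. Mrpl11 (0.24 ± 0.12), Mrps16 (0.17 ± 0.10), Mrps18c (-0.04 ± 0.12) and Mrps36 (-0.03 ± 0.16) were not called.

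**Figure D5:**
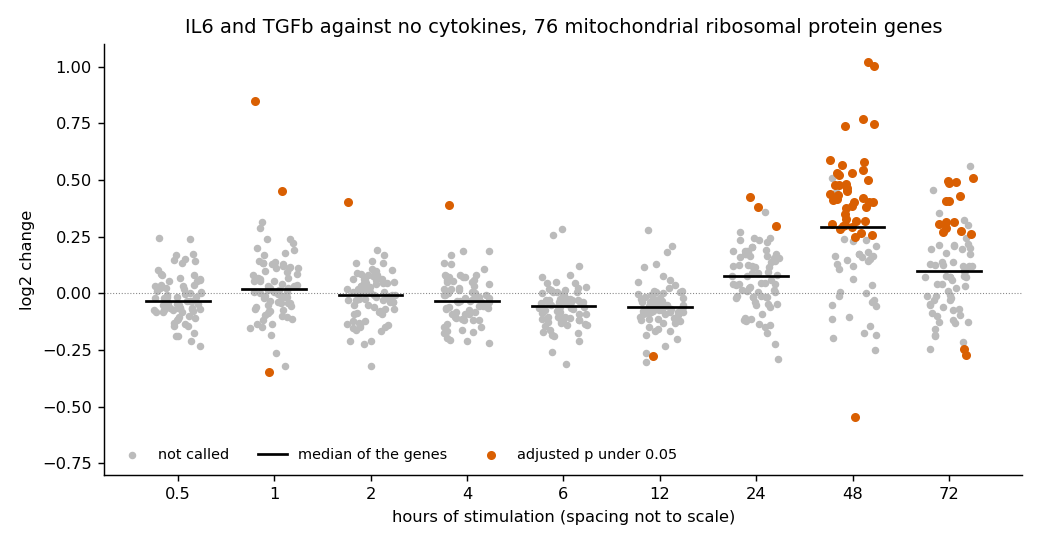
Log2 change of IL6 and TGFb against no cytokines for each of 76 genes (points, spread sideways for visibility) at 9 times, with called genes in orange and the median of the genes as a bar. The median is 0.29 at 48 h, where 41 genes are higher and 1, Mrpl45, is lower, and 0.10 at 72 h.

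At 72 h, 14 genes were higher and 2 lower with IL6 and TGFb (23.6% and 21.6% of all genes), with a median log2 change of 0.10. This balance turned to 8 higher and 12 lower, with a median of -0.03, when TMM scaling was left out. Leaving out replicate 1 gave 38 higher and 1 lower genes, replicate 2 gave 2 higher and 1 lower, and replicate 3 gave 8 higher and 0 lower. Shares of all genes called in these fits are not given here. Mrpl43 stood at 46.4, 49.6 and 48.4 CPM with IL6 and TGFb, against 33.2, 31.6 and 36.2 CPM without cytokines (log2 change 0.51 ± 0.09; limma adjusted p = 8e-06). Mrpl44 stood at 34.9, 36.0 and 37.7 CPM, against 29.0, 23.1 and 24.7 CPM without cytokines (log2 change 0.50 ± 0.12). Mrps34 stood at 13.8, 12.7 and 14.1 CPM, against 10.4, 8.12 and 10.0 CPM without cytokines (log2 change 0.49 ± 0.14). Both Mapk8ip3, on the opposite strand, and Nme3, on the same strand, share exon bases with Mrps34, and the larger overlap covers 63.4% of them. Mrps17 was lower, at 40.4, 42.1 and 42.3 CPM with IL6 and TGFb, against 54.1, 43.8 and 50.8 CPM without cytokines (log2 change -0.24 ± 0.10).

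The change of the cytokine effect between times was tested directly. From 24 to 48 h the log2 change was more positive at 48 h for 10 of the 76 genes and more negative for 0 (16.6% of all genes differed in either direction). Among the 10 were Mrpl12 (difference of log2 changes 0.84 ± 0.21), Mrps18b (0.84 ± 0.28) and Mrps26 (0.62 ± 0.13). From 48 to 72 h it was more negative at 72 h for 10 and more positive for 1 (23.4% of all genes), among them Mrpl12 (-0.70 ± 0.21), Mrpl40 (-0.66 ± 0.17) and, in the positive direction, Mrpl45 (0.90 ± 0.24). The log2 change of Mrpl40 was 0.41 at 48 h and -0.24 at 72 h, where it was not called. That of Mrpl45 was -0.55 at 48 h and 0.35 at 72 h, where it was not called and replicate 1 without cytokines stood at 101.5 CPM, far above the other libraries. From 24 to 72 h it was more positive for 3 and more negative for 1 (20.5% of all genes). Without TMM scaling the counts were 4 and 0 from 24 to 48 h, 2 and 11 from 48 to 72 h, and 2 and 4 from 24 to 72 h. The test of 24 against 48 h and of 48 against 72 h was added after the data had been seen.

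Other lists were compared at 48 h against the 28.1% of all genes that were higher and the 24.3% that were lower with IL6 and TGFb. Here 10 of 25 assembly and rRNA modification genes were higher and 1 was lower, led by Ddx28 (log2 change 1.20 ± 0.15), an RNA helicase of large subunit assembly. Translation factors gave 8 higher and 1 lower of 15, and mitoribosome proteins under other symbols 5 higher and 0 lower of 6. Aminoacyl-tRNA synthetases gave 5 higher and 4 lower of 20, close to the shares of all genes. Without TMM scaling the assembly genes gave 6 higher and 4 lower, the translation factors 3 and 2, the proteins under other symbols 2 and 0, and the synthetases turned to 3 higher and 8 lower. Regulators of mitochondrial transcription and biogenesis gave 4 higher and 0 lower of 12, with log2 changes of -0.07 to 1.36, or 4 and 1 without TMM scaling. From this list, Myc and Pprc1 were picked after their values were seen. Myc averaged 495 CPM with IL6 and TGFb at 48 h, against 206 CPM without cytokines (log2 change 1.36 ± 0.20), and Pprc1 275 CPM, against 128 CPM (log2 change 1.19 ± 0.13). Respiratory chain genes gave 18 higher and 3 lower of 73 at 48 h, a share of higher genes under that of all genes, with a balance that turned to 11 higher and 22 lower without TMM scaling. Cytosolic ribosomal protein genes gave 11 higher and 0 lower of 81 at 48 h, also under the share of all genes, which turned to 2 higher and 11 lower without TMM scaling. At 72 h they gave 76 higher and 0 lower, where 23.6% and 21.6% of all genes were, or 75 and 0 without TMM scaling.

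Marker lists differed between these groups as well. At 48 h the 5 B cell markers summed to 1.04 to 1.69 CPM with IL6 and TGFb, against 2.08 to 10.7 CPM without cytokines, and 3 of 5 were lower. The 2 CD8 T cell markers summed to 3.28 to 4.28 CPM, against 12.2 to 16.4 CPM without cytokines, and 1 of the 2 was lower. The 6 T cell markers summed to 2133 to 2317 CPM, against 2706 to 2782 CPM without cytokines, with 2 higher and 4 lower. The 6 myeloid markers summed to 43.9 to 46.2 CPM, against 26.8 to 31.9 CPM without cytokines. Of the 5 myeloid markers tested, however, 1 was higher and 2 were lower, with a median log2 change of -0.01. Lyz2 stayed at or under 0.124 CPM in the 6 libraries. The part of other cells in the results at 48 h was not tested.

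The cocktails with IL1b, IL21 or both, measured in replicates 4 to 6, were compared with their own 0 h cells. At 1 h, 45 genes were lower with IL6, TGFb, IL1b and IL21, 50 with IL6, TGFb and IL1b, and 47 with IL6, TGFb and IL21, where 31.6%, 32.4% and 32.4% of all genes were lower. At 24 h, 75 genes were higher under each cocktail, where 43.9%, 43.7% and 43.4% of all genes were higher. At 72 h, 72, 72 and 71 genes were higher, where 45.8%, 45.2% and 44.5% were. These comparisons share their 0 h libraries. The summed level at 24 h was 4100 ± 103 CPM with IL6, TGFb, IL1b and IL21, 4026 ± 61.0 CPM with IL6, TGFb and IL1b, 3904 ± 97.5 CPM with IL6, TGFb and IL21 and 1648 ± 122.9 CPM at 0 h (SD, n = 3 each). The 0 h groups of replicates 4 to 6 and 1 to 3 differed in 0 of the genes, where 0.15% of all genes were called, and the sum in replicates 1 to 3 was 1653 ± 18.2 CPM (SD, n = 3). For this comparison limma gave 0 of the genes an unadjusted p under 0.05, and no other tool was run.

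Few of the genes were called between cocktails in fits without a replicate block. With IL6, TGFb and IL1b against IL6, TGFb and IL21, 0 genes were called at 24 and 48 h and 3 at 72 h, where 0.209%, 2.08% and 8.66% of all genes were called. With both IL1b and IL21 against IL21 alone, 0 genes were called at 24, 48 and 72 h, where 0.209%, 1.23% and 3.84% were. With both against IL1b alone, 0 genes were called at these times, where 0% of all genes were called at each. Over all 27 comparisons between cocktails at the same time, limma gave 0 to 15 of the 76 genes an unadjusted p under 0.05. Both limma and edgeR called 0 genes in 26 of the 27, and edgeR called 4 at 72 h for IL1b against IL21. The 3 genes at 72 h were all higher with IL6, TGFb and IL1b. Mrps10 stood at 37.9, 44.2 and 39.8 CPM with IL6, TGFb and IL1b, against 27.6, 32.1 and 31.3 CPM with IL6, TGFb and IL21 (log2 change 0.42 ± 0.09; limma adjusted p = 4.76e-04), without overlap. Mrpl45 stood at 72.8, 93.3 and 86.9 CPM, against 55.7, 71.5 and 67.9 CPM with IL6, TGFb and IL21 (log2 change 0.37 ± 0.12). Mrpl35 stood at 30.4, 37.1 and 37.4 CPM, against 23.3, 28.3 and 30.2 CPM with IL6, TGFb and IL21 (log2 change 0.36 ± 0.11). Replicate 4 was the lowest in both groups for each of the 3. Leaving out replicate 6 left 0 called genes, replicate 5 left 1 and replicate 4 left 2. The replicate numbers paired these samples, and with the replicate as a block and the fit limited to the 6 libraries, 9 genes were higher and 0 lower. The share of all genes called in that fit is not given here.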

How the data were processed

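RNA-seq of mouse CD4 T cells was deposited by the authors as one gene table of CPM, depth-scaled read counts, with a column per library. TopHat and HTSeq are listed in the submitters' processing notes, as are the mouse build mm9 and the human build GRCh37, with neither versions nor roles. Every CPM value came out as a whole number of reads within 0.001 (100% of values). TMM factors (edgeR 4.0.16) scaled the CPM. Genes that reached 1 CPM in 3 or more libraries were fitted with limma 3.58.1 (R 4.3.3, trended variance) on log2(scaled CPM + 0.5), so fold changes of low genes are understated. Replicates 1 to 3 (57 libraries) and 4 to 6 (84 libraries) were fitted separately, with Benjamini-Hochberg adjustment over all genes tested. edgeR's quasi-likelihood test and DESeq2 1.42.0 on the recovered reads, other filters and pseudocounts, unscaled CPM, a replicate block and left-out replicates were alternatives. The scripts were tested on simulated data.

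The members and gene lists were chosen with earlier results of these data known. Genes named are, per comparison, the 3 highest and 3 lowest called genes that averaged 5 CPM or more and did not overlap between groups, the 3 most and 3 least like the median profile, the extremes by level, genes with textbook roles and the extremes of each other list. Level extremes are given per kilobase. A gene that this rule names is not reported here. Mrpl30, Mrpl33, Mrpl52 and Mrpl4 before 24 h, the genes whose cytokine effect changed, Myc and Pprc1 were also chosen after their values were seen. The correlation of same-numbered replicates was over 0.1 in every pair for IL6 and TGFb against no cytokines at 2 h (lowest 0.406) and for IL1b against IL21 at 72 h (lowest 0.49), which were taken as paired. The main fits held no replicate term, so the pairing entered only the fits with a replicate block.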

Additional observations from a re-analysis of the deposited data

Results flagged for a closer look

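The effect of IL6 and TGFb against no cytokines differed between times in a direct test for some of the genes, in each case a smaller share of the 76 than of all genes (16.6%, 23.4% and 20.5% of all genes for 48 against 24 h, 72 against 48 h and 72 against 24 h). From 24 to 48 h it differed for 10 genes, all more positive at 48 h, with a difference of log2 changes of 0.84 for Mrpl12 and 0.62 for Mrps26. From 48 to 72 h it differed for 11 genes, 10 of them more negative at 72 h, with -0.66 for Mrpl40 and 0.9 for Mrpl45. From 24 to 72 h it differed for 4 genes, with 0.55 for Mrpl4 and -0.61 for Mrpl33. Mrps26 stood at 79.2, 71.7 and 75.5 CPM with IL6 and TGFb at 48 h, against 51.3, 46.0 and 38.8 CPM without cytokines. Mrpl4 stood at 72.7, 70.4 and 72.8 CPM with IL6 and TGFb at 24 h, against 75.1, 78.5 and 84.5 CPM without cytokines. At 72 h it stood at 73.3, 71.8 and 65.2 CPM with IL6 and TGFb, against 56.4, 47.8 and 54.3 CPM without cytokines. Mrpl40 stood at 31.3, 34.0 and 34.0 CPM with IL6 and TGFb at 72 h, against 37.8, 37.2 and 43.0 CPM without cytokines.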

How the results depend on the processing

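Called genes numbered 52, 76 and 67 without cytokines against 0 h at 2, 24 and 72 h, and 1, 3, 42 and 16 with IL6 and TGFb against no cytokines at 2, 24, 48 and 72 h. Without TMM scaling the balance turned at 2 h against 0 h (58 called, 27 higher and 31 lower) and for IL6 and TGFb at 72 h (20 called, 8 higher and 12 lower), and 5 were called at 24 h. edgeR called 5 for IL6 and TGFb at 24 h and DESeq2 5, and DESeq2 called 5 for IL1b against IL21 at 72 h, where limma called 3. In fits limited to the libraries compared, IL6 and TGFb gave 0, 8, 25 and 5 at 2, 24, 48 and 72 h, and IL1b against IL21 gave 0. The replicate block over all libraries left the counts at 52, 76, 67, 1, 3, 42, 16 and 3. With the replicate block in the fits limited to the libraries compared, IL6 and TGFb gave 24, 7 and 0 at 24, 48 and 72 h, IL1b against IL21 gave 9, and no cytokines against 0 h at 72 h gave 42. For IL6 and TGFb at 2 h, taken as paired, that fit again called the 1 gene of the main fit. Its full count is not given here. Leaving out each replicate gave 43 to 48, 76 to 76 and 60 to 66 against 0 h at 2, 24 and 72 h, and 0 to 1, 0 to 3, 20 to 52 and 3 to 39 for IL6 and TGFb at 2, 24, 48 and 72 h. For IL1b against IL21 it gave 0 to 2. Apart from the 2 pairs taken as paired, the lowest correlation of same-numbered replicates lay between -0.391 and 0.055. The causes of these differences were not tested, and the shares of all genes called under these settings are not given here. The count at 48 h and the limited block were added after the data had been seen.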
